A study of Mus musculus with 9 samples.

Results

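The complement genes described here were the 3 chains of C1q (*C1qa*, *C1qb*, and *C1qc*), the central component *C3*, properdin (*Cfp*), factor B (*Cfb*), and the receptors *C5ar1* and *C3ar1*. They were picked by gene symbol and were 8 of the 31053 genes listed. All 8 were listed, and 6 of them passed the filter on low counts in at least 1 cell class. Single cells of femur bone marrow were sequenced from 9 female mice aged 9 to 10 weeks, 3 of each strain, with 1 library per mouse. NZB and NZW are inbred parental strains. NZBWF1 is the first generation of their cross and develops a lupus-like disease without treatment. All mice came from the same supplier and no group was treated, so every comparison was between genotypes of the whole genome. A strain difference therefore cannot be told apart from any other difference that the strains carry.

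Complement is a cascade of plasma proteins and their receptors. C1q recognizes antibody bound to antigen and dying cells, and it starts the classical pathway. Macrophages are its best known source. C3 is the point at which the pathways meet, factor B and properdin build and stabilize the convertase of the alternative pathway, and the small fragments C3a and C5a call in and activate leukocytes through *C3ar1* and *C5ar1*. In lupus, C1q deficiency is a known risk, while complement is also consumed by immune complexes.

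After the quality limits, between 2455 and 5684 barcodes per mouse remained, with 8106539 to 18663189 UMIs (counted molecules) per mouse. The median UMIs per barcode were 2182.5 to 2536.5. Of 38879 barcode sequences, 170 were shared by libraries. After doublets were taken out, 36525 cells remained, and marker genes that include no complement gene placed them into 20 classes. The classes are written with the ending "-like" because no protein was measured, and 10.6% of the cells stayed unassigned. Levels are counts-per-million (CPM), the UMIs of a gene relative to all UMIs of a class in a mouse. The assay reads the ends of transcripts, so a level is compared between classes or strains of the same gene, and shares or orders that set genes side by side are shares or orders of UMIs only.

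The macrophage-like class held 207 cells, 0.567% of all cells, with 10 to 52 cells per mouse. All 14 macrophage markers were found in it. Their summed level was 5710 to 7781 CPM in NZB, 7706 to 10052 CPM in NZW, and 5663 to 8380 CPM in NZBWF1. The class also carried markers of immature neutrophils, summed over the list to 28606 to 65025 CPM in NZB, 31547 to 67522 CPM in NZW, and 20615 to 66755 CPM in NZBWF1. In 67 of the cells the macrophage marker score led that of every other lineage by at least 0.1, and in 140 it did not. Another lineage's score was the higher in 123 of the 207 cells. The 67 cells were 10 from NZB, 27 from NZW, and 30 from NZBWF1. Mixed barcodes, cells bound to each other, and cells with engulfed material cannot be told apart in these counts.

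The C1q chain genes lie side by side on the minus strand of chromosome 4. In GRCm38 coordinates from GENCODE vM21, *C1qb* spans chr4:136880129-136886187, *C1qc* spans chr4:136889804-136893065, and *C1qa* spans chr4:136895917-136898803. The bases before the RefSeq start of *C1qb* (chr4:136886201-136886450, GRCm38.p6, minus strand) and *C1qc* (chr4:136893066-136893164, GRCm38.p6, minus strand) are shown as those of the C1q chains that had a window. They are written in the direction of transcription. The capitals mark the letters of AGGAAGT, searched on both strands, here on the opposite strand.
C1qb: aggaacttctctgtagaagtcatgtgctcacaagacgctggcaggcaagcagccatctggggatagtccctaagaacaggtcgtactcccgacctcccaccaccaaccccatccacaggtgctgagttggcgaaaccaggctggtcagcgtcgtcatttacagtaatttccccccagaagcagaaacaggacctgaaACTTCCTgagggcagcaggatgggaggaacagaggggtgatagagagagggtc
C1qc: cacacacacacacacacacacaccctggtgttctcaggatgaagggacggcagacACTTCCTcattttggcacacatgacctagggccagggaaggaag
The motif was picked after the sequences were read. Of the 250 bases before the start of *C1qc*, the 99 outside the GENCODE gene are printed. The motif occurred once in the 250 bases of each gene, and 7.69% of 32851 windows of 250 bases before a start held it. A window was found for 6 of the 8 genes, all but *C1qa* and *Cfb*. *C5ar1* had 2 matches in its 250 bases, and *C3*, *Cfp*, and *C3ar1* had 0. These are matches of letters, and no binding was measured. *C3* (chr17:57203970-57228136), *Cfb* (chr17:34856374-34862518), *Cfp* (chrX:20925454-20931555), *C5ar1* (chr7:16246743-16259540), and *C3ar1* (chr6:122847138-122856161) also lie on the minus strand.

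**Figure D1:**
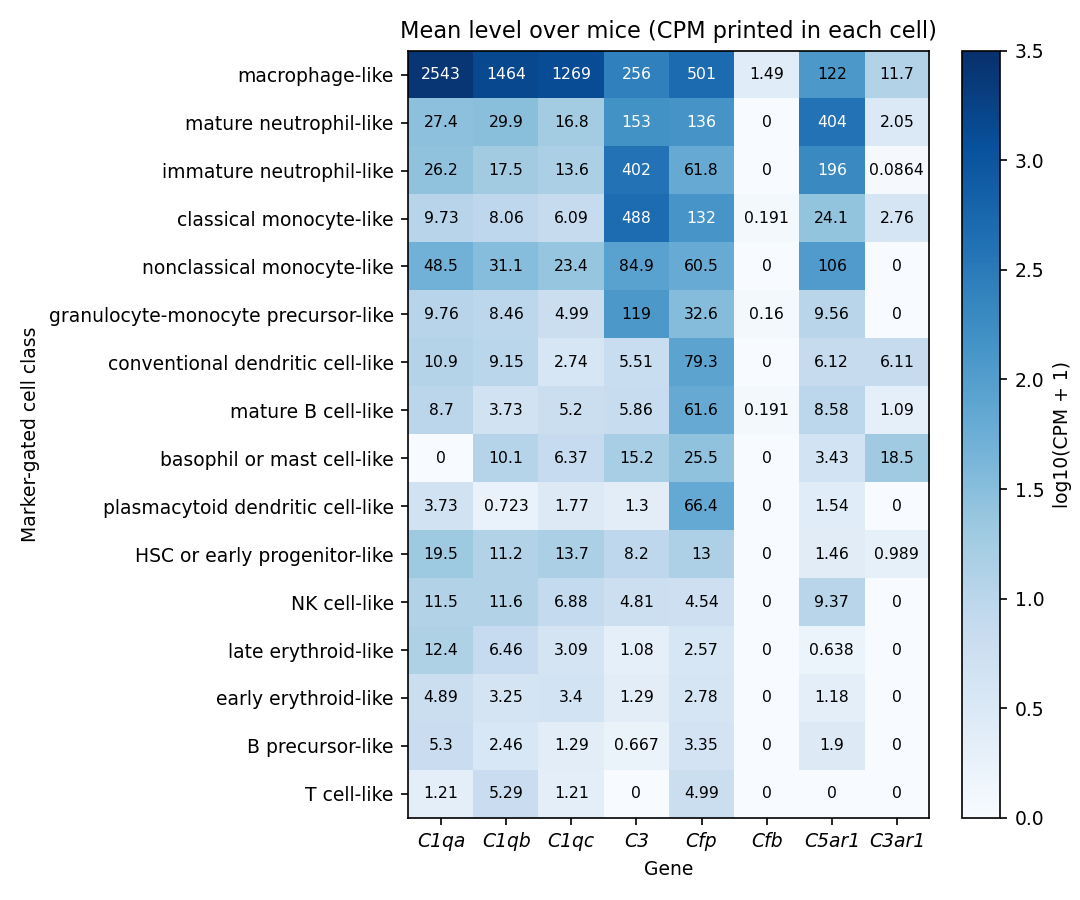
Mean level of each gene (columns) in the 16 marker-gated classes tested (rows), over the mice with enough cells of the class. The number in a cell is CPM and the colour is log10(CPM + 1). The C1q chains were highest in macrophage-like cells, *C3* in classical monocyte-like cells, *C5ar1* in mature neutrophil-like cells, and *Cfb* was near 0 in every class.

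The 3 C1q chains had their highest level in macrophage-like cells. The mean over 9 mice there was 2543 ± 986 CPM for *C1qa*, 1464 ± 644 CPM for *C1qb*, and 1269 ± 544 CPM for *C1qc* (SD). The next of the 16 classes tested was the nonclassical monocyte-like class, at 48.5, 31.1, and 23.4 CPM from only 11, 7, and 6 UMIs. Macrophage-like cells were above it in 8 of 8 mice for each chain (exact sign-flip permutation, two-sided, p = 0.00781, or 0.102 after Benjamini-Hochberg correction over 118 pairs of neighbouring classes). With 8 mice, as in this comparison, the smallest p of this test is 0.00781, and with 9 mice it is 0.00391. The test thus has little room for 118 pairs, of which 19 had a p under 0.05 before correction. No pair passed the correction, and the lower classes overlapped widely. *C1qa*, for example, was at 27.4 CPM in mature and 26.2 CPM in immature neutrophil-like cells, with the mature class higher in 4 of 9 mice. Nonclassical monocyte-like cells were above mature neutrophil-like cells in 4, 2, and 4 of 8 mice for *C1qa*, *C1qb*, and *C1qc*.

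C1q UMIs were not all in macrophage-like cells. Of 2955 *C1qa* UMIs, 47.5% lay in this class and 29.0% in the immature neutrophil-like class, which held 32.2% of all cells. For *C1qb* the shares were 43.2% and 29.4% of 1923 UMIs, and for *C1qc* they were 47.0% and 28.4% of 1539 UMIs. The plot of UMI shares shows the same split for the 3 chains.

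**Figure D2:**
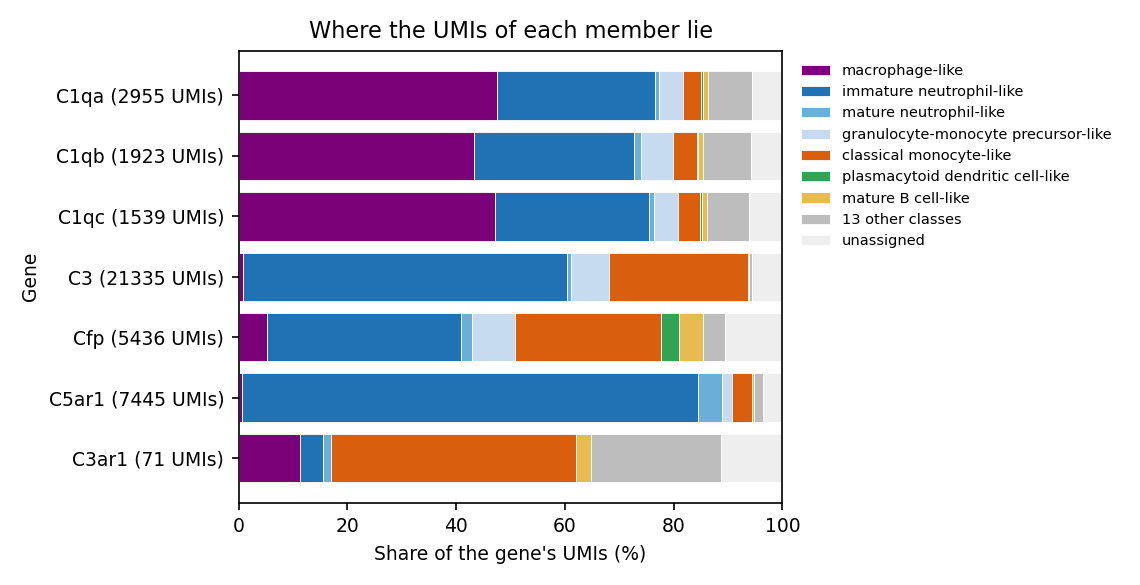
Share of each gene's UMIs (horizontal axis, percent) by cell class (colours), for the 7 genes with more than 6 UMIs. The C1q chains have 47.5%, 43.2%, and 47.0% of their UMIs in macrophage-like cells, 59.7% of *C3* and 83.8% of *C5ar1* lie in immature neutrophil-like cells, and *Cfp* is spread over several classes.

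Counted per cell, 201 of 207 macrophage-like cells had a UMI of at least 1 chain (97.1%, exact 95% interval 93.8 to 98.9). In 136 of them all 3 chains were found (65.7%, interval 58.8 to 72.1), and the median was 7 C1q UMIs per cell, with 98 as the highest. At least 10 C1q UMIs were found in 92 of the 207 cells and in 15 of the 36318 other cells. Among immature neutrophil-like cells 999 of 11747 had a C1q UMI (8.50%, interval 8.01 to 9.02), and 77 had all 3 chains. In T cell-like cells, which should lack C1q, 4 of 594 had a UMI (0.673%, interval 0.184 to 1.72). Several other classes had higher shares, at 8.39% in late erythroid-like and 7.51% in granulocyte-monocyte precursor-like cells. Early erythroid-like cells were at 6.30% and NK cell-like cells at 4.33%. The B precursor-like and mature B cell-like classes were low, at 1.06% and 1.13%. The median depth was 2179 UMIs per macrophage-like cell, 2356 per immature neutrophil-like cell, and 1292.5 per T cell-like cell. It was 5954 in late erythroid-like, 4825.5 in granulocyte-monocyte precursor-like, 9693.5 in early erythroid-like, and 1420.5 in NK cell-like cells. In B precursor-like and mature B cell-like cells it was 2015 and 1337. All intervals cover counting error only.

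At 1000 UMIs per cell, 72.9% of macrophage-like and 2.12% of immature neutrophil-like cells still had a *C1qa* UMI, and 0 of 594 T cell-like cells did, which allows a share of up to 0.505%. Such limits hold for cells with a UMI at this depth and not for cells that express the gene. The deeper plasma cell-like cells (median 10184 UMIs) had a C1q UMI in 2 of 237 cells before thinning. In free RNA, measured in barcodes with fewer than 100 UMIs, *C1qa* was at 65.8 CPM, above its 26.2 CPM in the immature neutrophil-like class. If each cell held 12 to 17 UMIs of free RNA, the median of barcodes with 10 to 99 UMIs in each mouse, this would give 10.8 *C1qa* UMIs in that class, where 858 were counted. The true load of free RNA per cell was not measured. In T cell-like cells 1 was counted and 0.560 would be given at that load. In classical monocyte-like cells 99 were counted and 4.28 would be given, and in early erythroid-like cells 88 and 1.57. The 2 values were 17 and 0.254 in late erythroid-like, 14 and 0.608 in NK cell-like, and 46 and 3.86 in B precursor-like cells. Counts above that load were thus not particular to immature neutrophil-like cells.

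The chains kept similar proportions in the 3 largest pools of C1q UMIs. *C1qa*, *C1qb*, and *C1qc* made up 47.4%, 28.1%, and 24.5% of 2959 C1q UMIs in macrophage-like cells, 46.1%, 30.4%, and 23.5% of 1861 in immature neutrophil-like cells, and 45.2%, 30.4%, and 24.4% of 1060 in free RNA. They made up 40.4%, 34.3%, and 25.3% of 245 UMIs in classical monocyte-like cells, and in granulocyte-monocyte precursor-like cells 41.3%, 36.8%, and 21.9% of 315. The difference between classes was not tested. By strain, *C1qa* took up 51.0 ± 5.85% of the C1q UMIs of macrophage-like cells for NZB, 47.7 ± 1.42% for NZW, and 46.7 ± 1.26% for NZBWF1 (SD, n = 3; exact permutation over 280 partitions, p = 0.361, adjusted over the 3 chains p = 0.659). The 67 cells whose macrophage marker score led by at least 0.1 had higher levels of the chains than the other 140. *C1qa* was at 5386 against 1447 CPM and *Cfp* at 1047 against 296 CPM, while *C5ar1* was at 39.3 against 112 CPM.

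Within macrophage-like cells, the chains were lower in every NZB mouse than in every NZW mouse. *C1qa* was at 1479.6, 1506, and 2343 CPM in NZB, at 3163, 4424, and 2952 CPM in NZW, and at 2199, 3209.7, and 1608 CPM in NZBWF1. *C1qb* was at 759, 753, and 1145 CPM in NZB, at 2287, 2538, and 1601 CPM in NZW, and at 1261, 1813, and 1022 CPM in NZBWF1. *C1qc* was at 607, 1112, and 677 CPM in NZB, at 1395, 2292, and 1468 CPM in NZW, and at 1132, 1826, and 914 CPM in NZBWF1. The parental strains did not overlap for any chain, and NZBWF1 overlapped both of them for each chain.

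The test did not call these differences. By edgeR's quasi-likelihood method the log2 fold change of NZB against NZW was -0.97 ± 0.34 (SE) for *C1qa*, with a Benjamini-Hochberg adjusted p of 0.266. It was -1.28 ± 0.35 for *C1qb* (edgeR, adjusted p = 0.156) and -1.12 ± 0.36 for *C1qc* (edgeR, adjusted p = 0.253). In this class 944 genes were tested and 0.53% of them were called. On data simulated for this comparison, 3 of 200 genes changed 2-fold were recovered. These were drawn at random from the 944 genes, so the recovery of genes at the level of the C1q chains was not measured. This class had 18 alternatives for the C1q chains. *C1qb* was called in 4 of them and not in the other 14 (edgeR, adjusted p up to 0.427). The 4 were DESeq2 (log2 fold change -1.32, adjusted p = 0.0351), doublets kept in all classes or for macrophages only (edgeR, -1.27, adjusted p = 0.0371 in both), and leaving out NZB replicate 3 (edgeR, -1.60, adjusted p = 0.0332). *C1qa* and *C1qc* were called in 0 of 18. The summed level of the macrophage markers in this class, given above, ran lower in NZB than in NZW, with a slight overlap. The part of that difference in the result was not tested. The class held 35 cells of NZB and 74 of NZW. The 10 mature neutrophil markers in it summed to 538 to 4529 CPM in NZB, 3504 to 6164 CPM in NZW, and 4593 to 15686 CPM in NZBWF1, and their part in the result was not tested.

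**Figure D3:**
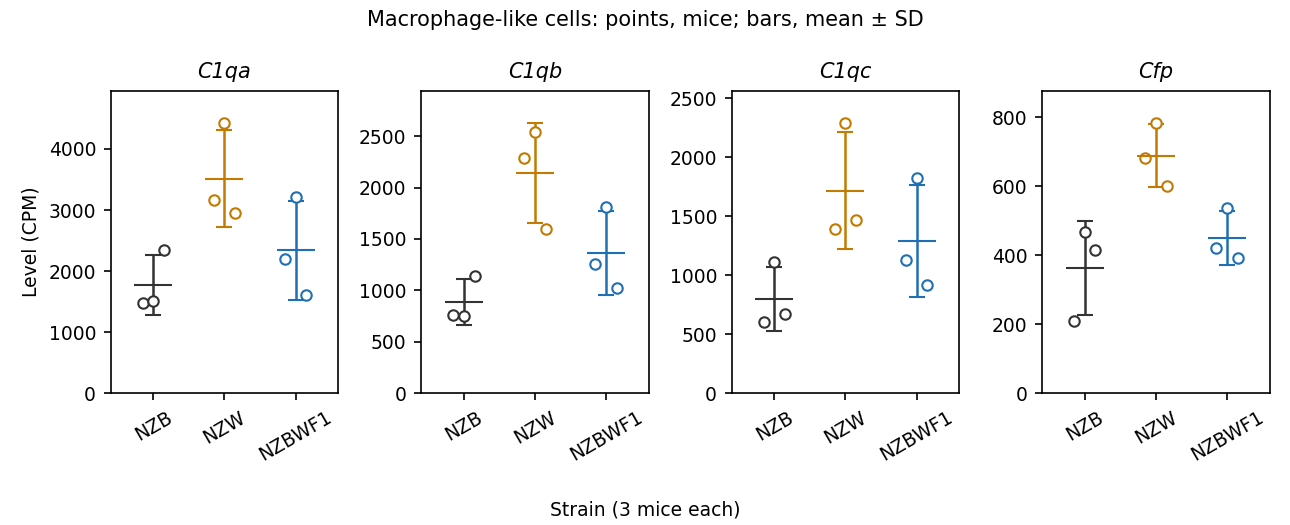
Levels (CPM) of the C1q chains and *Cfp* in macrophage-like cells. Each point is a mouse, and the bars give the mean and SD of the 3 mice of a strain. All 3 NZB mice lie below all 3 NZW mice in each panel, and edgeR called none of the 4 genes in this class.

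In classical monocyte-like cells, C1q was scarce, with 99 *C1qa*, 84 *C1qb*, and 62 *C1qc* UMIs in 4552 cells. *C1qa* was at 10.2, 6.65, and 13.9 CPM in NZB, at 2.43, 1.3, and 4.84 CPM in NZW, and at 20.8, 14.8, and 12.6 CPM in NZBWF1. Both NZB and NZBWF1 were above NZW without overlap, while NZB and NZBWF1 overlapped. *C1qa* rose in NZB against NZW by 1.70 ± 0.47 on the log2 scale (edgeR, adjusted p = 0.00858), and *C1qc* by 1.51 ± 0.51 (edgeR, adjusted p = 0.0294), in a class where 22.3% of the tested genes were called. The value of *C1qb* was 0.63 ± 0.46 (edgeR, adjusted p = 0.359). The direction of C1q in these cells was thus opposite in sign to that in macrophage-like cells, where no call was made. The difference between the classes was not tested for C1q, which stayed under the minimum of 20 CPM set for that test.

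These C1q calls depended on which cells were counted as monocytes. With classes drawn by clusters the log2 fold change turned to -0.40 for *C1qa* (edgeR, adjusted p = 0.634) and to -0.04 for *C1qc* (edgeR, adjusted p = 0.95). In the 2520 cells with low scores for neutrophils and their precursors *C1qa* was at 0.80 (edgeR, adjusted p = 0.584). The call for *C1qa* was also lost without NZB replicate 3 (1.43, edgeR adjusted p = 0.0666) or NZW replicate 2 (1.33, 0.0642). *C1qc* was not called without NZB replicate 1 or 3 or NZW replicate 1 or 2, nor by DESeq2 (adjusted p = 0.0670 to 0.177).

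Markers of other cells moved with the strains in this class. The summed level of the 9 immature neutrophil markers, 8 of them detected, was 641 to 1045 CPM in NZB, 463 to 567 CPM in NZW, and 469 to 634 CPM in NZBWF1. All 6 precursor markers were detected, with sums of 1357 to 2084, 824 to 1318, and 833 to 955 CPM in that order. All 14 macrophage markers were detected, and their sum was lower in NZB, at 83.1 to 103 CPM, against 149 to 182 CPM in NZW and 165 to 199 CPM in NZBWF1. The part of these cells in the C1q results was tested only by the alternatives above.

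*C1qa* was also called in early erythroid-like cells, which are red cell precursors. The 9 mice had 88 UMIs there, at 4.74, 5.29, and 10.4 CPM in NZB, 0.900, 2.91, and 1.94 CPM in NZW, and 1.49, 8.75, and 7.6 CPM in NZBWF1. The parental strains did not overlap, and *C1qa* rose in NZB by 1.67 ± 0.48 (edgeR, adjusted p = 0.0239), in a class where 8.23% of the tested genes were called. The sum of the 14 macrophage markers was 52.1 to 72.0 CPM in NZB, 50.5 to 68.6 CPM in NZW, and 70.4 to 84.7 CPM in NZBWF1. That of the 9 late erythroid markers was 4085 to 4776, 9008 to 11021, and 2261 to 7534 CPM in that order, and the part of this difference was not tested. The call was lost with DESeq2, with doublets kept, and without NZB replicate 3 or NZW replicate 1 or 3 (adjusted p = 0.0639 to 0.254). *C1qb* and *C1qc* did not pass the filter in this class. With classes drawn by clusters they were called (1.92, edgeR adjusted p = 0.00924, and 2.38, edgeR adjusted p = 0.00677).

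*C3* was a gene of monocytes and neutrophils in this marrow. The class of highest level was the classical monocyte-like class, with a mean of 488 ± 42.5 CPM (SD, n = 9), followed by immature neutrophil-like cells with 402 ± 51.0 CPM and macrophage-like cells with 256 ± 53.1 CPM. Each step was in the same direction in 9 of 9 mice (exact sign-flip permutation, p = 0.00391, the smallest possible, adjusted p = 0.102). Of 21335 *C3* UMIs, 59.7% lay in immature neutrophil-like and 25.6% in classical monocyte-like cells. Before thinning, a *C3* UMI was found in 61.9% of classical monocyte-like and 60.0% of immature neutrophil-like cells, at median depths of 2100 and 2356 UMIs. It was found in 0 of 594 T cell-like cells (median 1292.5 UMIs), which allows a share of up to 0.505%.

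In classical monocyte-like cells it was at 546, 486, and 531 CPM in NZB, 471, 423, and 455 CPM in NZW, and 539.8, 485, and 458 CPM in NZBWF1. NZB was above NZW without overlap, by 0.22 ± 0.10 on the log2 scale (edgeR, adjusted p = 0.1). None of the 5 classes in which *C3* was tested was called in any of the 4 comparisons by edgeR. With a limit of 2000 UMIs, *C3* in granulocyte-monocyte precursor-like cells was called lower in NZB than in NZW (log2 fold change -0.46, edgeR adjusted p = 0.0110). In immature neutrophil-like cells, the class with most of its UMIs, the 95% interval of the log2 fold change of NZB against NZW ran from -0.08 to 0.41.

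*Cfp*, the stabilizer of the alternative convertase, was highest in macrophage-like cells, with 501 ± 172 CPM, against 136 CPM in mature neutrophil-like and 132 CPM in classical monocyte-like cells (SD, n = 9). Macrophage-like cells were above mature neutrophil-like cells in 8 of 9 mice (exact sign-flip permutation, p = 0.00781, adjusted p = 0.102). Below these came conventional dendritic cell-like cells at 79.3, plasmacytoid dendritic cell-like cells at 66.4, immature neutrophil-like cells at 61.8, and mature B cell-like cells at 61.6 CPM, each of them within the spread of its neighbour. B precursor-like cells were at 3.35 CPM and T cell-like cells at 4.99 CPM. In all, 8.45% of mature B cell-like and 9.30% of plasmacytoid dendritic cell-like cells had a *Cfp* UMI, against 0.842% of T cell-like cells, at median depths of 1337, 1701.5, and 1292.5 UMIs.

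The called differences in *Cfp* between NZB and NZW were of opposite sign in different classes. In classical monocyte-like cells *Cfp* was at 174, 161, and 162 CPM in NZB, 109, 122, and 90.7 CPM in NZW, and 115, 101, and 149 CPM in NZBWF1. NZB was above both other strains without overlap, by 0.64 ± 0.13 on the log2 scale against NZW (edgeR, adjusted p = 0.000621). In plasmacytoid dendritic cell-like cells, the cells known for making type I interferon, the order was the other way. *Cfp* was at 35.6, 37.5, and 44.5 CPM in NZB, 91.9, 80.8, and 72.8 CPM in NZW, and 99.3, 68.6, and 66.3 CPM in NZBWF1, so NZB was below both without overlap. The log2 fold change of NZB against NZW there was -1.01 ± 0.31 (edgeR, adjusted p = 0.0289), with 6.82% of the tested genes called in the class. A dependence of the strain difference on the class was not called for this pair of classes (exact permutation, p = 0.025, or 0.193 after correction over 48 pairs).

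*Cfp* in macrophage-like cells was at 209, 466, and 416 CPM in NZB, 681, 783, and 600.5 CPM in NZW, and 420.5, 537, and 391 CPM in NZBWF1. NZB lay below NZW without overlap, and edgeR did not call it (log2 fold change -1.01 ± 0.37, adjusted p = 0.287). In mature neutrophil-like cells it was at 237, 162, and 165 CPM in NZB, 94.2, 73.8, and 113 CPM in NZW, and 204, 89.4, and 84.5 CPM in NZBWF1. NZB lay above NZW there, by 1.13 ± 0.43 on the log2 scale (edgeR, adjusted p = 0.144), and with a limit of 500 UMIs it was called (0.73, edgeR adjusted p = 0.0161). Immature neutrophil-like cells, which held 35.7% of the *Cfp* UMIs, were at 81.8, 61.4, and 64.7 CPM in NZB, 64.2, 46.3, and 47.9 CPM in NZW, and 80.3, 44.7, and 64.8 CPM in NZBWF1, and all strains overlapped. The log2 fold change of NZB against NZW there was 0.55 ± 0.21 (edgeR, adjusted p = 0.103). It was called in 5 of 22 alternatives, which were the replicate block (0.57, edgeR adjusted p = 0.000243), no filter, a limit of 500 UMIs, and without NZW replicate 1 or NZBWF1 replicate 2 (edgeR, adjusted p = 0.00192 to 0.0413). The dependence of the strain difference on the class was tested by exact permutation of the 9 mice over 48 pairs of classes. The lowest p, 0.00714, was for *Cfp* in classical monocyte-like against macrophage-like cells, and it came to 0.129 after correction, as did those of the 3 next pairs, all of *Cfp* against plasmacytoid dendritic cell-like cells. No pair passed the correction, while 9 of the 48 had a p under 0.05, so the opposite signs are a description.

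The call of *Cfp* in classical monocyte-like cells was kept in all 22 alternatives, with log2 fold changes of 0.39 to 0.73 and adjusted p values (edgeR or DESeq2) of at most 0.0166. That in plasmacytoid dendritic cell-like cells was lost in 8 of 22. These were DESeq2 (adjusted p = 0.133), no filter (edgeR, 0.0768), a limit of 2000 UMIs (edgeR, 0.809), and leaving out NZB replicate 1 or 2 or any NZW mouse (edgeR, 0.0552 to 0.144). Among plasmacytoid dendritic cell-like cells, the 9 markers of the class summed to 7284 to 8233 CPM in NZB, 5946 to 6124 CPM in NZW, and 6662 to 6834 CPM in NZBWF1. The 8 classical monocyte markers summed to 2114 to 2339, 2113 to 2363, and 2042 to 2671 CPM, and so overlapped between the strains. The 5 B lineage markers, all detected, were lower in NZB, at 81.0 to 104 CPM against 141 to 214 CPM in NZW and 94.3 to 211 CPM in NZBWF1, and their part in the result was not tested.

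*Cfb*, the protease of the alternative convertase, was almost absent, with 6 UMIs in all cells. Of these, 2 were in classical monocyte-like cells and 1 each in macrophage-like, mature B cell-like, granulocyte-monocyte precursor-like, and unassigned cells. In immature neutrophil-like cells 0 of 32150152 UMIs were *Cfb*, which allows a level of up to 0.0933 CPM. Expression below that level was not detectable at this depth, and no class passed the filter for a test.

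*C5ar1*, the receptor for C5a, was mainly a gene of neutrophils. Its mean was 404 ± 118 CPM in mature and 196 ± 32.0 CPM in immature neutrophil-like cells (SD, n = 9), a log2 difference of 0.99 ± 0.33 (SD) that was positive in 9 of 9 mice (exact sign-flip permutation, p = 0.00391, adjusted p = 0.102). Macrophage-like cells followed with 122 ± 123 CPM and nonclassical monocyte-like cells with 106 ± 77.6 CPM, which were not told apart. Classical monocyte-like cells were at 24.1 CPM, below nonclassical ones in 8 of 8 mice (exact sign-flip permutation, p = 0.00781, adjusted p = 0.102). Before thinning, a *C5ar1* UMI was found in 46.7% of mature and 39.8% of immature neutrophil-like cells and in 5.43% of classical monocyte-like cells. The median depths were 1609, 2356, and 2100 UMIs. The count was 0 of 594 T cell-like cells and 0 of 237 plasma cell-like cells, which allows shares of up to 0.505% and 1.27%.

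The clearest strain difference of the 8 genes was that of *C5ar1* in classical monocyte-like cells. It was at 38.4, 48.4, and 38.6 CPM in NZB, at 17.8, 14.3, and 9.07 CPM in NZW, and at 16, 13.6, and 20.5 CPM in NZBWF1. NZB was above both other strains without overlap, and NZW and NZBWF1 overlapped. The log2 fold change of NZB against NZW was 1.69 ± 0.24 (edgeR, adjusted p = 1.7e-06), or 3.22-fold, and it was called in all 22 alternatives, at 1.39 to 1.90. In the 2520 cells with low neutrophil scores it was 1.69 ± 0.31 (edgeR, adjusted p = 0.000117). Over all 4552 classical monocyte-like cells, thinned to 1000 UMIs per cell, a *C5ar1* UMI was found in 6.04 ± 0.189% of the cells of NZB mice, 1.75 ± 0.516% of those of NZW, and 2.0 ± 0.552% of those of NZBWF1 (SD, n = 3; exact permutation, p = 0.0179, or 0.690 after correction over 85 such tests, of which 4 had a p under 0.05). The mature neutrophil markers, 10 of 10 detected, summed to 1736 to 2172 CPM in NZB, 1568 to 1872 CPM in NZW, and 1881 to 1998 CPM in NZBWF1, and so overlapped. The immature neutrophil markers (641 to 1045, 463 to 567, and 469 to 634 CPM) and the precursor markers (1357 to 2084, 824 to 1318, and 833 to 955 CPM) had higher sums in NZB, the same way as *C5ar1*. *C5ar1* itself was higher in immature neutrophil-like than in classical monocyte-like cells, and the part of such cells in the result was tested only by the cells with low neutrophil scores.

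**Figure D4:**
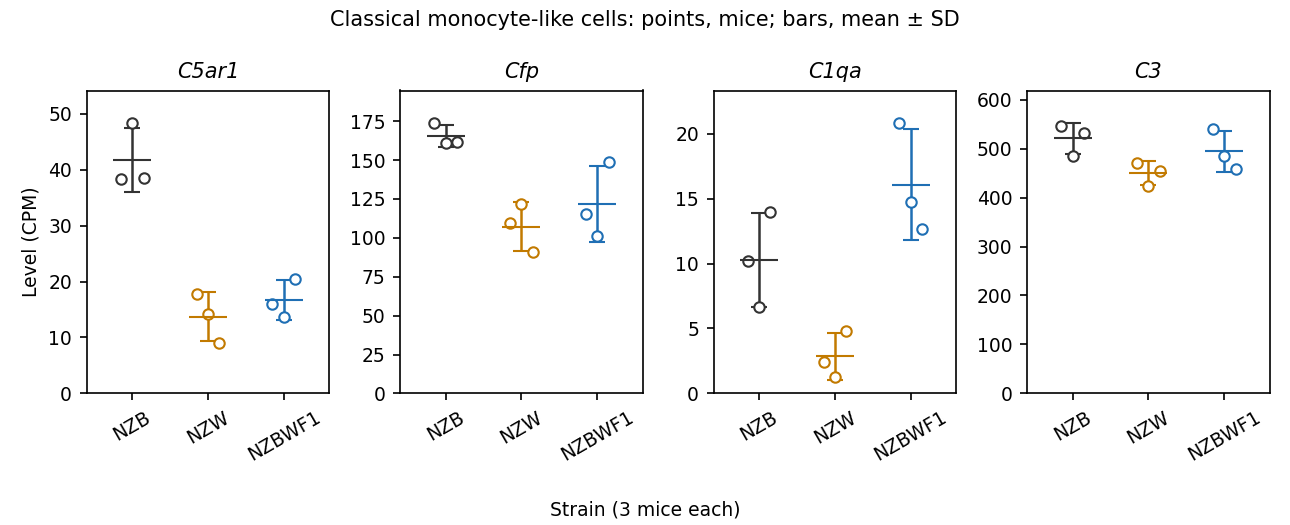
Levels (CPM) of *C5ar1*, *Cfp*, *C1qa*, and *C3* in classical monocyte-like cells. Each point is a mouse, and the bars give the mean and SD of the 3 mice of a strain. *C5ar1* and *Cfp* were highest in NZB, with all 3 NZB mice above all other mice, and *C1qa* was lowest in NZW.

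*C5ar1* was called in immature neutrophil-like cells as well, where it was at 235, 213, and 213 CPM in NZB, at 201, 133, and 167 CPM in NZW, and at 229.6, 191, and 184 CPM in NZBWF1. NZB lay above NZW without overlap and overlapped NZBWF1. The rise in NZB against NZW was 0.57 ± 0.15 on the log2 scale (edgeR, adjusted p = 0.0136), with 13% of the genes of the class called. The mature neutrophil markers in this class also had higher sums in NZB, at 5473 to 9976 CPM against 3696 to 6138 CPM in NZW and 4549 to 9700.5 CPM in NZBWF1, and 8 of the 10 were higher in NZB than in NZW. The part of this maturity in the result was not tested. The call was lost at a limit of 2000 UMIs (0.34, edgeR adjusted p = 0.0811) and without NZB replicate 1 or NZW replicate 2 or 3 (edgeR, adjusted p = 0.0618 to 0.0863).

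*C3ar1*, the receptor for C3a, had 71 UMIs in all, and it was not tested in any class. Of these, 32 lay in classical monocyte-like cells, 8 in macrophage-like cells, and 7 each in conventional dendritic cell-like and basophil or mast cell-like cells. The mean level was highest in the basophil or mast cell-like class, at 18.5 CPM over 8 mice against 11.7 CPM in macrophage-like cells, but it was the higher of both in 3 of 8 mice. It rested on 7 UMIs from 1 NZB and 2 NZBWF1 mice. A UMI was found in 6 of 142 of these cells (4.23%, exact interval 1.57 to 8.97), in 30 of 4552 classical monocyte-like cells (0.659%, interval 0.445 to 0.940), and in 0 of 594 T cell-like cells. Over all cells the level was 0.291 ± 0.0526 CPM in NZB, 0.543 ± 0.197 CPM in NZW, and 0.925 ± 0.163 CPM in NZBWF1 (SD, n = 3). These values hold different mixtures of cells and were not tested.

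Over all classes, the 6 testable genes gave 29 tests of NZB against NZW. Of these, 7 were called by edgeR, 6 higher and 1 lower in NZB, which is 24.1% of the tests, beside 8.24% of all 70239 tests of all genes (4.07% higher and 4.17% lower). The median log2 fold change of the 29 was 0.17, beside medians of -0.04 to 0.03 for all genes in the classes. In classical monocyte-like cells 4 of 6 were called, beside 22.3% of all genes there, and the median was 1.07. In macrophage-like cells 0 of 5 were called, with the C1q chains and *Cfp* at -1.28 to -0.97 and *C3* at -0.00064. The count was 4 without NZB replicate 1, 3 without NZW replicate 2, and 4 without NZW replicate 3. The share of all genes called in these fits is not given here.

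**Figure D5:**
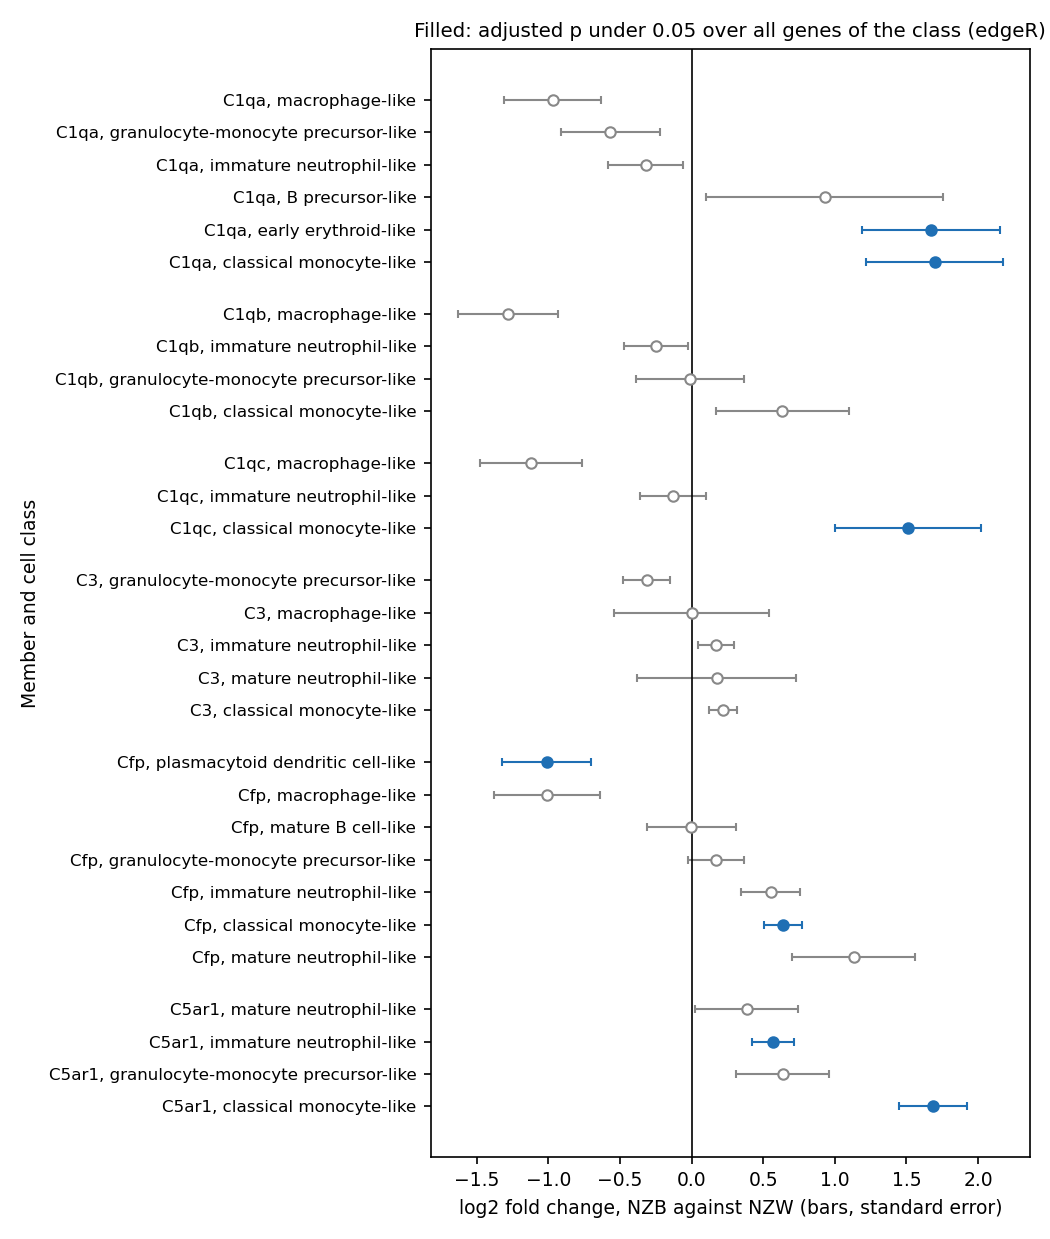
Log2 fold change of NZB against NZW (horizontal axis; bars, standard error) for each gene and class tested. Filled points have an edgeR adjusted p under 0.05 over the genes of the class. The 4 filled points of classical monocyte-like cells lie above 0, while in macrophage-like cells the C1q chains and *Cfp* lie at -1.28 to -0.97 and *C3* lies at 0.

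NZBWF1 was compared with its parents in the same fit, and these comparisons share mice with each other and with that of the parents. Against the mean of the parents 2 of 29 tests were called, beside 0.564% of all tests. Both were in classical monocyte-like cells, where *C1qa* was higher by 1.47 ± 0.33 (edgeR, adjusted p = 0.0110) and *C1qb* by 1.28 ± 0.33 (edgeR, adjusted p = 0.0280). *C1qb* was at 7.67, 4.84, and 7.5 CPM in NZB, 2.43, 5.18, and 4.23 CPM in NZW, and 17.6, 11.2, and 11.8 CPM in NZBWF1. All 3 NZBWF1 mice were above all parental mice. In this class 2.07% of all genes were called. The summed level of its macrophage markers, given above, also ran highest in NZBWF1, though it overlapped that of NZW. The part of these markers in the 2 calls was not tested.

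Neither of these calls was made under every alternative, while the log2 fold changes stayed above 0, at 1.07 to 1.81 for *C1qa* and 0.98 to 1.41 for *C1qb*. Without NZBWF1 replicate 2, no member was called, at an adjusted p (edgeR) of 0.113 for *C1qa* and 0.125 for *C1qb*. With DESeq2 the adjusted p was 0.0510 and 0.154, and with classes drawn by clusters (edgeR) it was 0.225 and 0.0943. *C1qb* was also not called without NZB replicate 2, NZW replicate 1 or 3, or NZBWF1 replicate 1 or 3 (edgeR, adjusted p = 0.0606 to 0.113). In the cells with low neutrophil scores *C1qa* was not called either, at 1.48 (edgeR, adjusted p = 0.159), nor with a limit of 2000 UMIs (edgeR, adjusted p = 0.597). *C1qb* was also lost with doublets kept and with the stricter gate. In all, *C1qa* was lost in 5 of 22 alternatives and *C1qb* in 10 of 20.

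Against NZB, 3 of 29 tests were called, beside 3.56% of all tests. In classical monocyte-like cells of NZBWF1 *C5ar1* fell by 1.41 ± 0.24 on the log2 scale (edgeR, adjusted p = 7.98e-05) and *Cfp* fell by 0.48 ± 0.14 (edgeR, adjusted p = 0.0139), in a class where 15.6% of the genes were called. *Cfp* in plasmacytoid dendritic cell-like cells rose by 0.90 ± 0.27 (edgeR, adjusted p = 0.0495), beside 2.03% of the genes there. The call of *C5ar1* was made in all 22 alternatives. That of *Cfp* in classical monocyte-like cells was lost in 6, among them without NZB replicate 2 (edgeR, adjusted p = 0.0507) and without NZBWF1 replicate 2 (edgeR, 0.188). That in plasmacytoid dendritic cell-like cells was lost in 12, including each mouse of NZB and NZBWF1 and NZW replicate 2 in turn (edgeR, 0.0503 to 0.179).

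Against NZW, 2 of 29 tests were called, beside 1% of all tests. Both were again in classical monocyte-like cells, *C1qa* with 2.31 ± 0.43 (edgeR, adjusted p = 0.00110) and *C1qb* with 1.60 ± 0.39 (edgeR, adjusted p = 0.0333), beside 0.964% of all genes. *C1qa* was called without any 1 mouse, but not with clusters, a limit of 2000 UMIs, or the cells with low neutrophil scores (edgeR, adjusted p = 0.133 to 0.673). *C1qb* was not called without any 1 of the NZW or NZBWF1 mice (edgeR, adjusted p = 0.0703 to 0.184). It was lost in 11 of 20 alternatives, the others being the replicate block (edgeR, 0.0508), DESeq2 (0.225), doublets kept (edgeR, 0.0622), the stricter gate (edgeR, 0.0583), and clusters (edgeR, 0.471). For *C5ar1* in classical monocyte-like cells the log2 fold change of NZBWF1 against NZW was 0.28, with a 95% interval of -0.28 to 0.84. For *Cfp* in the same cells it was 0.16, with an interval of -0.11 to 0.43. In early erythroid-like cells *C1qa* was at 1.69 and not called (edgeR, adjusted p = 0.0635). Some alternatives called it, among them the stricter gate (2.29, edgeR adjusted p = 0.00348) and clusters (2.24, edgeR adjusted p = 0.0354). With clusters *C1qb* (2.35, edgeR adjusted p = 0.00294) and *C1qc* (2.87, edgeR adjusted p = 0.00209) were called there too.

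In macrophage-like cells, the mean C1q levels of NZBWF1 lay between those of the parents. The log2 fold change of NZBWF1 against the mean of the parents was -0.08 ± 0.29 for *C1qa*, 0.01 ± 0.28 for *C1qb*, and 0.17 ± 0.30 for *C1qc*, none of them called by edgeR. In immature neutrophil-like cells, *C1qa* was at 23.0, 16.6, and 18.7 CPM in NZB, 26.6, 25.3, and 29.1 CPM in NZW, and 19, 31.3, and 46.5 CPM in NZBWF1. NZB lay below NZW without overlap, while NZBWF1 spread over both, and no chain was called there in any comparison by edgeR with the settings used throughout. Where macrophage markers had to lead, so that other cells with such markers could pass as neutrophils, all 3 chains were higher in NZBWF1 than in NZB, by 0.80, 0.81, and 0.79 on the log2 scale (edgeR, adjusted p = 0.0229, 0.0289, and 0.0455). The stricter gate called them as well, and without NZBWF1 replicate 1 *C1qa* (0.86, edgeR adjusted p = 0.0099) and *C1qb* (0.75, edgeR adjusted p = 0.0393) were called. In the same comparison *C1qa* was called with no filter on low counts (0.62, edgeR adjusted p = 0.0106). *C1qb* was called with classes drawn by clusters (0.78, edgeR adjusted p = 0.0152).

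Of the other complement genes, 46 of a list of 47 were among the genes of the files, and 16 passed the filter in at least 1 class. They gave 85 tests of NZB against NZW, of which 15 were called, 9 higher and 6 lower in NZB, or 17.6% of the tests, beside 8.24% of all tests, 22.3% of those in classical monocyte-like cells, and 11.3% of those in granulocyte-monocyte precursor-like cells. The median log2 fold change was 0.12. Against the mean of the parents 0 of 85 were called by edgeR in NZBWF1, beside 0.564% of all tests, and 7 passed before correction at 0.05. Against NZB 7 of 85 were called (3 higher and 4 lower), beside 3.56% of all tests, and against NZW 3 of 85 (2 higher and 1 lower), beside 1%. The 3 genes of highest mean level over the classes were *Calr*, which encodes the C1q-binding chaperone calreticulin, *Itgb2*, which encodes the beta chain of the complement receptors for iC3b, and *C1qbp*. Their highest levels were 1308 CPM in basophil or mast cell-like, 802 CPM in nonclassical monocyte-like, and 588 CPM in early erythroid-like cells.

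*Calr* was called in 5 classes, all of them higher in NZB than in NZW. In classical monocyte-like cells it was at 465 ± 33.1 CPM in NZB, 195 ± 49.1 CPM in NZW, and 277 ± 28.3 CPM in NZBWF1 (SD, n = 3). The log2 fold change there was 1.26 ± 0.13 (edgeR, adjusted p = 6.11e-08). In granulocyte-monocyte precursor-like, B precursor-like, early erythroid-like, and plasmacytoid dendritic cell-like cells it was 0.63, 0.61, 0.45, and 0.49. The call in plasmacytoid dendritic cell-like cells was lost in 7 of 22 alternatives, among them DESeq2 (adjusted p = 0.117) and without NZB replicate 2 or NZW replicate 1 or 3 (edgeR, adjusted p = 0.0533 to 0.165). That in B precursor-like cells was lost without NZB replicate 3 (edgeR, adjusted p = 0.178). *Calr* was at 1234 CPM in granulocyte-monocyte precursor-like cells of NZB, and precursor markers had higher sums in NZB classical monocyte-like cells. Their part in the monocyte call was tested only by the 22 alternatives, all of which kept it, including the cells with low neutrophil scores. *Cd59a*, a membrane regulator that blocks the membrane attack complex, rose in NZB plasmacytoid dendritic cell-like cells by 2.45 ± 0.51 (edgeR, adjusted p = 0.000246), while *Clu*, a fluid-phase inhibitor of that complex, rose in granulocyte-monocyte precursor-like cells by 1.46 ± 0.28 (edgeR, adjusted p = 0.000112).

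Other genes of the list fell or changed sign with the class. *Cd93*, once described as a C1q receptor, was lower in NZB in 4 classes, with log2 fold changes of -0.60 in classical monocyte-like, -0.84 in granulocyte-monocyte precursor-like, -2.29 in plasmacytoid dendritic cell-like, and -0.85 in immature neutrophil-like cells. The call in immature neutrophil-like cells was lost in 8 of 22 alternatives, among them DESeq2 (adjusted p = 0.115) and without NZB replicate 2 or 3 or any 1 NZW mouse (edgeR, adjusted p = 0.0673 to 0.189). That in plasmacytoid dendritic cell-like cells was lost in 4 of 14, including without NZW replicate 2 or 3 (edgeR, adjusted p = 0.0589 and 0.242), and that in classical monocyte-like cells with a limit of 2000 UMIs (edgeR, adjusted p = 0.159). *Fcnb*, a ficolin of the lectin pathway, was higher in NZB classical monocyte-like cells by 1.33 ± 0.21 (edgeR, adjusted p = 9.68e-06) and lower in granulocyte-monocyte precursor-like cells, at -1.20 ± 0.13 (edgeR, adjusted p = 7.09e-11). The latter call was lost with a limit of 500 UMIs (edgeR, adjusted p = 0.151). *Fcnb* was highest in immature neutrophil-like cells, at 317 CPM. In classical monocyte-like cells it was at 44.2 CPM in NZB and 17.5 CPM in NZW. Immature neutrophil and precursor markers had higher sums in NZB in that class, as given above. Their part was tested only by the 22 alternatives, all of which kept the call, including the cells with low neutrophil scores. *Itgax*, which encodes the alpha chain of complement receptor CR4, was lower in NZB plasmacytoid dendritic cell-like cells, at -2.02 ± 0.41 (edgeR, adjusted p = 0.000179).

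The genes whose mean levels over the 16 classes were most like those of each complement gene were taken by Pearson's r of log2(CPM + 1), leaving out the 8 genes themselves. These are descriptions over classes that share mice and libraries. For *C1qa* they were *Spic* (r = 0.92), *Igf1*, and *Abcc3*, for *C1qb* they were *Axl* (0.96), *Mrap*, and *Hmox1*, and for *C1qc* they were *Fcna* (0.96), *Spic*, and *Mrap*. All of these were highest in macrophage-like cells, and *Spic* and *Axl* were among the markers of that class. For *C3* they were *Igsf6* (0.96), *Hp*, and *Clec4a2*, for *Cfp* they were *Pira2* (0.94), *Pirb*, and *Rp2*, and for *C5ar1* they were *Pilrb2* (0.98), *Fpr2*, and *Ifitm6*. Among the 8 genes themselves, r was 0.96 between *C1qb* and *C1qc* and 0.86 between *C3* and *C5ar1*.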

How the data were processed

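Bone marrow cells of 9 mice were captured with a 10x Genomics 3′ kit, and the authors deposited a matrix of UMI counts per gene and barcode, made with Cell Ranger 3.1.0 (mm10, per the submitters' processing notes) and joined over the libraries. Nothing used here states whether depth was equalized in joining. Barcodes were mapped to mice by their library suffix. As in the study, barcodes had to reach 1000 UMIs and 500 genes and to stay within 10% mitochondrial UMIs (13 genes). Simulated doublets removed 2526 of 39051 barcodes, at a rate of 0.8% per 1000. Cells were gated by marker scores of at least 0.4 with at least 2 markers and a lead of 0.1. Macrophage markers came first, with at least 3 markers and no lead. The gate's limits were set after the data were seen.

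Counts were summed per mouse and class, leaving out a mouse where it had under 10 such cells, and were tested with edgeR 4.0.16 (quasi-likelihood, TMM, its expression filter, R 4.3.3), with Benjamini-Hochberg correction over the genes of a class at 0.05. Errors of log2 fold changes by edgeR are SE, taken as the size of the change over the square root of the test's F value. Intervals of log2 fold changes are nominally 95% and use the normal quantile. They are thus narrower than intervals from the F test would be. DESeq2 1.42.0 was an alternative. Levels use log2(CPM + 1) in exact permutation and sign-flip tests. Shares of cells were compared between strains after thinning each cell to 1000 UMIs. Shares set side by side for classes are before thinning, except where 1000 UMIs per cell is named, and so also reflect depth. The scripts were tested on simulated data in which 200 genes were changed 2-fold. Of these, 158 were recovered in immature neutrophil-like and 151 in classical monocyte-like cells for NZB against NZW. P-values measure the spread between mice, 3 per strain. The labels' replicate numbers were used to pair the mice only in the replicate block setting.

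The genes and lists were chosen with earlier results of these data known. Named genes were the 8 complement genes, genes of the wider complement list called in NZB against NZW in at least 1 class (at most 15 by p), its 3 genes of highest mean level, and the 3 genes most like each complement gene with at least 20 CPM in a class. The values of 1 gene of the wider list are not reported here.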

Additional observations from a re-analysis of the deposited data

How the results depend on the processing

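The settings tried were other normalization, no filter on low counts, DESeq2, other limits on cells, other gates, clusters, free RNA subtracted, a replicate block, and single mice left out. The counts of called tests among the 8 genes were 7, 2, 3, and 2 for NZB against NZW and for NZBWF1 against the parental mean, NZB, and NZW. Leaving out 1 mouse at a time moved them to 3 to 8, 0 to 2, 1 to 4, and 1 to 3. For NZBWF1 against the parental mean the count was 0 with DESeq2, 2000 UMIs, or clusters, and 1 with doublets kept, the stricter gate, or monocytes of low neutrophil score. That last call was *C5ar1*, at -1.18 (edgeR, adjusted p = 0.0413). Against NZB it was 1 with DESeq2 or 2000 UMIs and 6 with the stricter gate or macrophages with a lead. Against NZW it was 5 with no filter on low counts, 1 with DESeq2, 2000 UMIs, or doublets kept, and 0 with monocytes of low neutrophil score. The cause was not tested. The share of all genes called under each setting is not given beside these counts or those below. They therefore do not show whether only these genes or all genes of a class moved.

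The same replicate numbers in the labels were not used to pair the mice. The rule asked for a mean correlation of deviations over 0.1 in all 9 pairs. It was over 0.1 in 5 of 9, at 0.00516 to 0.125, and in single classes it ran from -0.233 to 0.555. A shared effect of same-numbered mice was not tested beyond the replicate block. With the replicate block the counts were 8, 2, 5, and 1, and 18 for the wider complement list, which had 15. With clusters the sign turned for *C1qa* (-0.40) and *C1qc* (-0.044) in classical monocyte-like cells, NZB against NZW. Macrophages with a lead, macrophage doublets kept, and monocytes of low neutrophil score were chosen after the data were seen. Macrophage doublets kept left the cells of all other classes as they were. Monocytes of low neutrophil score changed no tested class but the classical monocytes. In the classes left as they were, these settings count among the alternatives but are no further check. The wider list's count stayed within 10 to 19. The exact tests over 48, 85, and 118 tests had little room to pass their correction, so their 0 calls say nothing of stability. The C1q chain proportions held 3 tests, with a smallest possible p of 0.00357, and had p values of 0.361 to 0.811 (exact permutation). The 207 macrophage-like cells, with 944 genes tested and another lineage's score higher in 123 cells, limited what that class can show.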
